A study of Mus musculus with 6 samples.

Results

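Matrix metalloproteinases and the tissue inhibitors that block them were examined in the submandibular gland, a major salivary gland, of female NOD mice aged 10 weeks with and without the adaptor gene Myd88. The set held 6 metalloproteinase genes, Mmp2, Mmp3, Mmp8, Mmp9, Mmp14 and Mmp19, and the inhibitor genes Timp1, Timp2 and Timp3. They were picked by gene symbol in the platform annotation, with the brightest probe set standing for a gene, which gave 9 genes of 19505 named on the array. Total RNA of the whole gland was hybridised to 1 Clariom S array per mouse, in 3 mice homozygous for the targeted allele (Myd88-/-) and 3 wild-type mice (Myd88+/+), all with a strain label of NOD.B6. Mice 1 to 3 of each genotype are numbered as in the labels, and the numbers were not taken to pair them. The knockout is carried by every cell of the mouse, and no other allele and no treatment is named in the labels for either genotype. In such bulk RNA, fewer cells of a type and less RNA per cell cannot be told apart.

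Matrix metalloproteinases are zinc-dependent enzymes that cut collagens, laminins, proteoglycans and other proteins around cells. Most are secreted as inactive proenzymes, and the TIMPs bind their active sites to stop them. Mmp14 sits in the cell membrane and, together with Timp2, activates the proenzyme of Mmp2 at the cell surface. In salivary glands with autoimmune inflammation these enzymes are studied because they break down the basement membrane around acini and ducts. Several of their genes respond to interleukin-1 and Toll-like receptors, which signal through Myd88. The comparison asked whether transcripts of the family differ between the genotypes in a strain that develops such inflammation.

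The values were log2 expression values, so a difference of 1 means a 2-fold change. Array medians lay between 6.0 and 6.1. The background control probe sets had a median of 5.55, which served as a guide to which probe sets were dim, and levels of different genes were not compared, since each probe set has its own response. An array's 10th and 90th percentiles lay apart by 6.95, 7.13 and 6.83 log2 units across Myd88-/- mice 1 to 3, against 7.30, 7.10 and 7.20 across Myd88+/+ mice 1 to 3. Myd88-/- mice 1 and 3 thus had the narrowest arrays. The Myd88 probe set read 7.33, 6.80 and 7.47 in Myd88-/- glands and 7.81, 7.86 and 7.53 in Myd88+/+ glands. The groups did not overlap (log2 difference -0.53, SE 0.21, limma adjusted p = 0.462), and the sources used here do not place it relative to the deletion. The genes listed here as acinar or granular duct markers were bright in both genotypes with 1 exception. The acinar water channel Aqp5 had a mean of 13.84 in Myd88-/- and 13.98 in Myd88+/+ glands, and the granular duct gene Egf 15.39 in Myd88-/- and 15.31 in Myd88+/+ glands. The exception was Bpifa2, a secreted salivary protein listed with the acinar markers, whose place as a marker of this gland was not tested. It read 5.55, 5.78 and 6.38 across Myd88-/- mice 1 to 3, against 9.35, 10.07 and 6.27 across Myd88+/+ mice 1 to 3 (log2 difference -2.66, limma unadjusted p = 0.00852, adjusted p = 0.388), with overlapping groups.

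The differences of the family were split by signal level. All 6 genes whose mean over the 6 mice lay above the background control median had lower means in Myd88-/- glands, from Mmp2, 2.24-fold lower, to Mmp19, 1.21-fold lower. Timp3, Mmp14 and Timp2 lay between them at 1.77-fold, 1.74-fold and 1.71-fold lower. Of all probe sets above the background control median, 57.8% had a lower mean and 8.34% were lower at an unadjusted limma p under 0.05. The 3 dim genes, Mmp8, Mmp9 and Timp1, differed by 0.32, 0.22 and -0.06 log2 units. None of the 9 passed limma's test after Benjamini-Hochberg adjustment over all 22206 probe sets, where 0% of probe sets were called in either direction, at an adjusted p of 0.339 to 0.955 for these genes.

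The counts stand against a wide background, and they are a description, since the 9 genes were chosen with earlier results of these data known. Of the 9 genes, 7 had a lower and 2 a higher mean in Myd88-/- glands, with a median log2 difference of -0.51 (-0.29 without Myd88-/- mouse 3), whereas 47.5% of all probe sets had a lower and 52.5% a higher mean and the median over all was 0.02. At an unadjusted p under 0.05, limma counted 4 of the 9 lower (Mmp2, Mmp14, Timp2 and Timp3) and 0 higher, against 5.55% of all probe sets lower and 4.5% higher. Signal level matters for this reading, since probe sets with a mean above the background control median were lower in 57.8% of cases and dimmer ones in 33.4%, and the share lower at an unadjusted p under 0.05 was 8.34% among the brighter ones. The count of 4 became 2 without Myd88-/- mouse 1, without Myd88-/- mouse 3 or without Myd88+/+ mouse 1, and 1 without Myd88+/+ mouse 2.

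**Figure D1:**
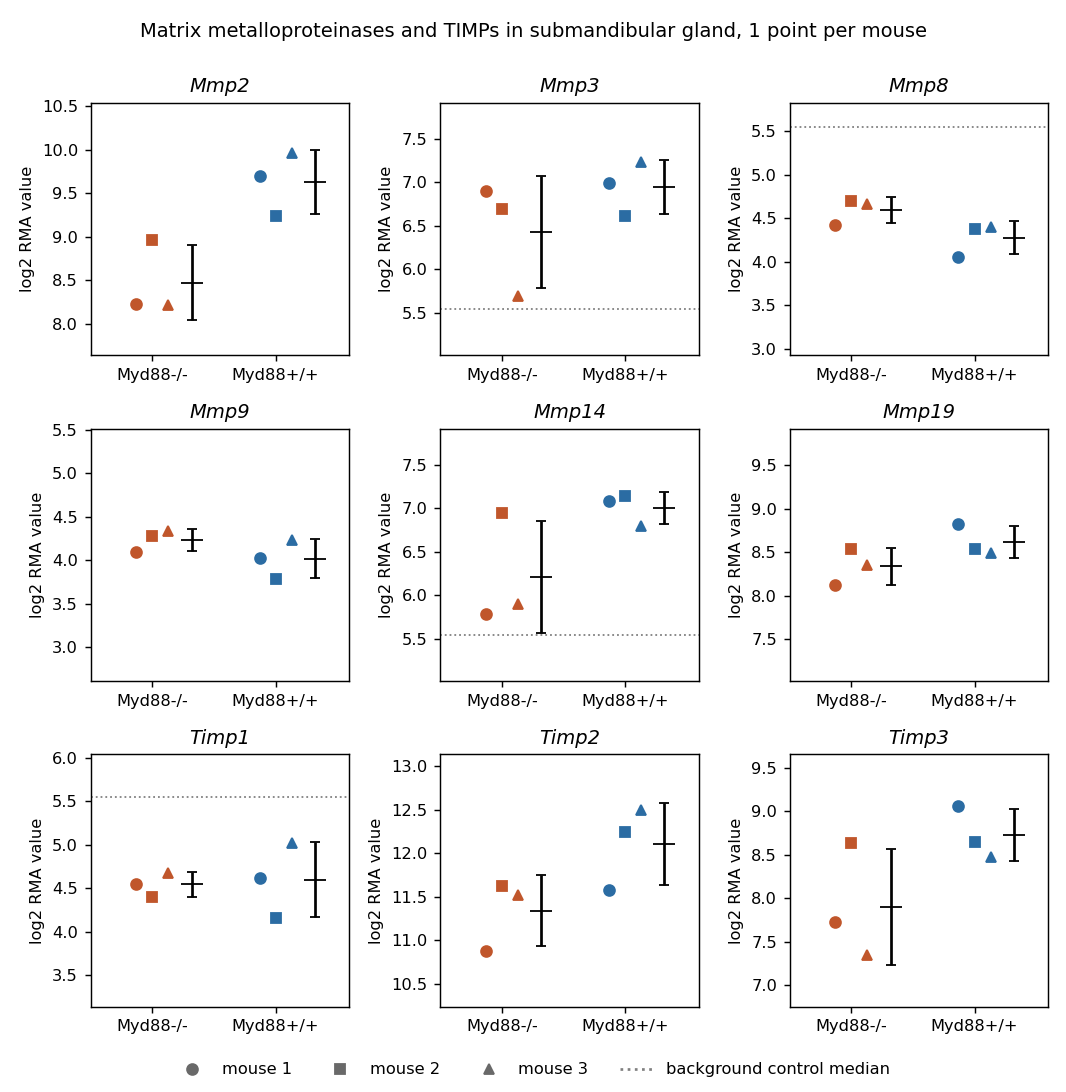
Log2 expression value of the 9 genes in each of 6 mice, Myd88-/- left and Myd88+/+ right, with the mean and SD of each group (n = 3) beside its points, mice by symbol and the background control median of 5.55 as a dotted line where it falls in the panel. Mmp2 is the gene whose Myd88-/- points all lie below its Myd88+/+ points, and in Mmp14 and Timp3 Myd88-/- mouse 2 sits among the Myd88+/+ points.

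Promoter windows, 250 bases before to 50 after the annotated start, were available in the RefSeq table of GRCm38.p6 for 6 of the 9 genes. Windows are printed for the 4 brighter genes among them, whose means were lower in Myd88-/- glands, because their makeup differs: the Mmp3 window had a GC content of 40%, the Mmp14 window 56%, the Timp2 window 68.7% and the Timp3 window 67%, where the median of all 32851 windows was 52.7%. Capitals mark matches, on either strand, to the 7 motifs given in the next paragraph. No matches overlapped (0 in the 6 windows).
Mmp3, chr9:7445572-7445871, + strand: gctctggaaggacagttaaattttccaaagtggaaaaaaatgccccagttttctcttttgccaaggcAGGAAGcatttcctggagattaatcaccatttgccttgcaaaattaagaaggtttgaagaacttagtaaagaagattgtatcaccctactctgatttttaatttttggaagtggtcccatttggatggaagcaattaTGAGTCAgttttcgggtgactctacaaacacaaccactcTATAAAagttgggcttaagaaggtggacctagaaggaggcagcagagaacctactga
Mmp14, chr14:54431348-54431647, + strand: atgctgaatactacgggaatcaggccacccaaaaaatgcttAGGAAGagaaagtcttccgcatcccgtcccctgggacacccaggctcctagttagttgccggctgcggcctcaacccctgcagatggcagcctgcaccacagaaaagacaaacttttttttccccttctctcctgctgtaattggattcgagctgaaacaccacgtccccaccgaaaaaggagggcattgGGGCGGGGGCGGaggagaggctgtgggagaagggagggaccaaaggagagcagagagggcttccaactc
Timp2, chr11:118355362-118355661, - strand: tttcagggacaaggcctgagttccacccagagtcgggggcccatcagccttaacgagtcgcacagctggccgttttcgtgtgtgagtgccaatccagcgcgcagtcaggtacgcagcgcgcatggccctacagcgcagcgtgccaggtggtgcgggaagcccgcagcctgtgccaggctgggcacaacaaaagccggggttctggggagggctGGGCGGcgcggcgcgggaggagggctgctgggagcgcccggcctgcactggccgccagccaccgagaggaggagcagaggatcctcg
Timp3, chr10:86300162-86300461, + strand: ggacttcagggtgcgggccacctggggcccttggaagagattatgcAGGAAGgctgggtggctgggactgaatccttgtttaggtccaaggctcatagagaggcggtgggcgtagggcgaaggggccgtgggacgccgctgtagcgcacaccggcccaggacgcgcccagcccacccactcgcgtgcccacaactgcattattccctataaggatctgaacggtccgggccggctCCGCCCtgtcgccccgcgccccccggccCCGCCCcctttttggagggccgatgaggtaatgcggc

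The AP-1 motif, searched as TGACTCA and bound by Fos and Jun proteins, was found in 1 of the 6 windows, that of Mmp3, where its first base lies 46 bases before the start (position -46), and in 5.2% of all windows. The TATA box, searched as TATAAA, occurred once each in the Mmp3 window and in the Mmp8 window, which is not printed, and 13.6% of all windows hold it. GC boxes, searched as GGGCGG, were found in 35.7% of all windows and numbered 2 in the Mmp14 window, 1 in the Timp2 window and 2 in the Timp3 window, and 0 in those of Mmp3 and Mmp8. The ETS motif of the PEA3 kind, searched as AGGAAG, was found in 35.4% of all windows, and the Timp1 window, not printed, held 3 such motifs and 1 GC box. The other 3 motifs had 0 matches in the 6 windows. Among all windows 1.79% hold the CRE motif, searched as TGACGTCA, 8.3% hold the STAT motif, searched as TTCNNNGAA, and 8.46% hold the NF-kB motif, searched by its usual degenerate letters. A match is a run of letters and shows no binding.

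Mmp14, the membrane-bound activator, read 5.79, 6.95 and 5.90 across Myd88-/- mice 1 to 3, against 7.08, 7.15 and 6.80 across Myd88+/+ mice 1 to 3. Myd88-/- mouse 2 lay between the Myd88+/+ mice, so the groups overlapped, while mice 1 and 3 stood about 1 unit below the lowest Myd88+/+ mouse. Myd88-/- mice averaged 6.21 ± 0.64, against 7.01 ± 0.18 in Myd88+/+ mice (SD, n = 3 each), and the log2 difference was -0.80 with a 95% interval of -1.46 to -0.13 (limma adjusted p = 0.442). With Myd88-/- mouse 2 as the sole knockout mouse the difference was -0.06, and without that mouse it was -1.17.

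Mmp2, or gelatinase A, cuts denatured collagen and type IV collagen of basement membranes and is made chiefly by fibroblasts. It read 8.23, 8.97 and 8.22 across Myd88-/- mice 1 to 3, against 9.70, 9.24 and 9.96 across Myd88+/+ mice 1 to 3. All 3 Myd88-/- mice lay below the lowest Myd88+/+ mouse, as in 7.25% of all probe sets and 10.4% of those above the background control median. The gap was narrowest between both mice numbered 2. Myd88-/- mice averaged 8.47 ± 0.43, against 9.63 ± 0.37 in Myd88+/+ mice (SD, n = 3 each), and the log2 difference was -1.16 with a 95% interval of -1.75 to -0.57 (limma unadjusted p = 0.00159, adjusted p = 0.339). Leaving out each mouse in turn gave -1.41 to -1.0, and with Myd88-/- mouse 2 as the sole knockout mouse it was -0.67.

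Mmp3, or stromelysin-1, cuts proteoglycans and laminin and activates other metalloproteinases. It read 6.90, 6.69 and 5.69 across Myd88-/- mice 1 to 3, against 6.99, 6.61 and 7.23 across Myd88+/+ mice 1 to 3. Only Myd88-/- mouse 3 stood apart, and the groups overlapped. The log2 difference was -0.51 with a 95% interval of -1.22 to 0.19 (limma adjusted p = 0.614), and without Myd88-/- mouse 3 it was -0.15.

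Mmp19, a secreted metalloproteinase that cuts basement membrane proteins, read 8.12, 8.54 and 8.36 across Myd88-/- mice 1 to 3, against 8.82, 8.54 and 8.49 across Myd88+/+ mice 1 to 3. Its range over the 6 mice was 0.70 log2 units, the narrowest of the 6 brighter genes. The groups overlapped, and the log2 difference of -0.28 had a 95% interval of -0.69 to 0.14 (limma adjusted p = 0.647). It was -0.17 without Myd88-/- mouse 1 and -0.18 without Myd88+/+ mouse 1.

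Mmp8 and Mmp9 are the collagenase and the gelatinase that neutrophils store in granules, and Mmp9 is also made by macrophages. Both were dim in every mouse. Mmp8 read 4.42, 4.70 and 4.66 across Myd88-/- mice 1 to 3, against 4.05, 4.38 and 4.40 across Myd88+/+ mice 1 to 3, so each Myd88-/- mouse lay above the highest Myd88+/+ mouse, as in 7.84% of all probe sets. That margin was narrow, and the log2 difference of 0.32 had a 95% interval of -0.09 to 0.72 (limma adjusted p = 0.588). Mmp9 read 4.09, 4.28 and 4.34 across Myd88-/- mice 1 to 3, against 4.02, 3.79 and 4.24 across Myd88+/+ mice 1 to 3, with overlapping groups and a log2 difference of 0.22 (95% interval -0.19 to 0.63, limma adjusted p = 0.709). Since all 12 values lay under the background control median of 5.55, the size of these differences is uncertain. Without Myd88+/+ mouse 1 the Mmp8 difference was 0.20, and the Mmp9 difference was 0.11 without Myd88+/+ mouse 2 and 0.33 without Myd88+/+ mouse 3. Neutrophil markers were mostly dim as well, with 7 of 10 measured markers under the background control median in their mean over the mice. The granule genes Elane, Ngp and Camp were among these. S100a9 and the granule genes Mpo and Ltf had means above it, at 5.69, 6.04 and 5.60. Ltf was above it in Myd88+/+ mouse 3 alone, at 7.18. The summed level of the markers, given as the mean of their log2 values after centring each on its mean over the 6 mice, ran from -0.10 to 0.04 in Myd88-/- and from -0.11 to 0.19 in Myd88+/+ glands.

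Among the inhibitors, Timp2 takes part in the activation of Mmp2 as well as in its inhibition. It read 10.87, 11.62 and 11.52 across Myd88-/- mice 1 to 3, against 11.58, 12.24 and 12.50 across Myd88+/+ mice 1 to 3. The groups overlapped, as Myd88+/+ mouse 1 lay within the Myd88-/- range. Myd88-/- mice averaged 11.34 ± 0.41, against 12.11 ± 0.47 in Myd88+/+ mice (SD, n = 3 each), and the log2 difference was -0.77 with a 95% interval of -1.40 to -0.14 (limma adjusted p = 0.440). It was -1.03 without Myd88+/+ mouse 1 and -0.54 without Myd88-/- mouse 1.

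Timp3, the inhibitor that binds to the matrix and also blocks Adam17, read 7.72, 8.64 and 7.35 across Myd88-/- mice 1 to 3, against 9.06, 8.64 and 8.48 across Myd88+/+ mice 1 to 3. As with Mmp14, Myd88-/- mouse 2 lay among the Myd88+/+ mice and the others below all of them. Myd88-/- mice averaged 7.90 ± 0.67, against 8.73 ± 0.30 in Myd88+/+ mice (SD, n = 3 each), and the log2 difference was -0.82 with a 95% interval of -1.54 to -0.11 (limma adjusted p = 0.454). It was -0.09 with Myd88-/- mouse 2 as the sole knockout mouse and -1.19 without that mouse, and -0.55 without Myd88-/- mouse 3.

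Timp1, a secreted inhibitor induced by inflammatory cytokines, read 4.56, 4.40 and 4.68 across Myd88-/- mice 1 to 3, against 4.62, 4.16 and 5.02 across Myd88+/+ mice 1 to 3. All 6 values lay under the background control median, and the Myd88-/- mice fell inside the range of the Myd88+/+ mice. The log2 difference of -0.06 had a 95% interval of -0.57 to 0.46 (limma adjusted p = 0.955), and its sign turned to 0.15 without Myd88+/+ mouse 3. Of the other genes that overlap these 9 in the RefSeq table of GRCm38.p6, Syn1 overlaps Timp1 and Syn3 overlaps Timp3. Syn1 had a log2 difference of 0.24 and Syn3 of -0.22, both with overlapping groups, and Cep295nl, which overlaps Timp2, had -0.23.

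The balance between proteases and inhibitors was followed as the log2 difference within a mouse, for 3 textbook pairs. Mmp2 minus Timp2 averaged -2.87 ± 0.38 in Myd88-/- mice, against -2.48 ± 0.56 in Myd88+/+ mice (SD, n = 3 each), for a difference between genotypes of -0.39 (two-sided exact permutation p = 0.4, adjusted over the 3 pairs p = 0.6). That difference was -0.10 without Myd88+/+ mouse 1, -0.17 without Myd88-/- mouse 3 and -0.66 without Myd88+/+ mouse 2. Mmp14 minus Timp2 averaged -5.13 ± 0.48 in Myd88-/- mice, against -5.10 ± 0.60 in Myd88+/+ mice (SD, n = 3 each), for a difference of -0.03 (two-sided exact permutation p = 1, adjusted p = 1). Mmp9 minus Timp1, both dim, averaged -0.31 ± 0.17 in Myd88-/- mice, against -0.59 ± 0.20 in Myd88+/+ mice (SD, n = 3 each), for a difference of 0.27 (two-sided exact permutation p = 0.2, adjusted p = 0.6), which was 0.18 without Myd88-/- mouse 2 or without Myd88+/+ mouse 3. The smallest p that 3 mice against 3 allow is 0.1, so no pair could have passed, and a level of one probe set above another says nothing about amounts of protein.

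The mice of the Myd88-/- group were not alike. Myd88-/- mice 1 and 3 were the 2 lowest of the 6 mice in 5 of the 9 genes (Mmp2, Mmp14, Mmp19, Timp2 and Timp3), as in 11.7% of all probe sets and in 17.4% of those above the background control median. These arrays also had the narrowest spans, 6.95 and 6.83. The mean level of the markers of myoepithelial cells, the contractile cells around acini, split the group in the same way. Centred, it was -0.56, 0.22 and -0.50 across Myd88-/- mice 1 to 3, against 0.22, -0.01 and 0.62 across Myd88+/+ mice 1 to 3. The marker Trp63 did not split it so, with 9.14, 9.50 and 9.49 across Myd88-/- mice 1 to 3, against 10.54, 10.66 and 10.49 across Myd88+/+ mice 1 to 3. All 7 of the 7 markers had lower means in Myd88-/- glands, as had 57.8% of all probe sets above the background control median. After quantile normalization 6 of the 7 were lower. At an unadjusted p under 0.05 limma counted 2 of the 7 lower, beside 8.34% of those brighter probe sets, and 0 passed after adjustment. The part of myoepithelial cells in the differences of Mmp14 and Timp3, and that of the array span, was not tested.

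Fibroblasts and macrophages are among the cells that make these enzymes, and the mean level of the markers of either type was lower in each of the 3 Myd88-/- mice than in any Myd88+/+ mouse. The 9 measured fibroblast markers all had lower means, with centred mean levels of -0.56 to -0.06 in Myd88-/- and 0.08 to 0.62 in Myd88+/+ glands. The 10 measured macrophage markers also all had lower means, with levels of -0.59 to -0.40 in Myd88-/- and 0.10 to 0.90 in Myd88+/+ glands. Endothelial markers were lower in 5 of 6, with levels of -0.34 to 0.07 in Myd88-/- and -0.12 to 0.30 in Myd88+/+ glands, and in 3 of 6 without Myd88-/- mouse 3. T cell markers, of which 4 of 6 were under the background control median, were lower in 5 of 6, with a median log2 difference of -0.52 and overlapping levels of -0.62 to -0.15 in Myd88-/- and -0.32 to 1.14 in Myd88+/+ glands. Myd88+/+ mouse 3 stood apart there, as Cd3e, a chain of the T cell receptor complex, read 5.27, 4.74 and 4.91 across Myd88-/- mice 1 to 3, against 5.13, 5.85 and 8.26 across Myd88+/+ mice 1 to 3. B cell markers were lower in 3 of 5, with levels of -0.09 to 0.11 in Myd88-/- and -0.26 to 0.40 in Myd88+/+ glands, and in 0 of 5 without Myd88+/+ mouse 3. Of these 5 markers 4 were under the background control median. Of the fibroblast and macrophage marker genes none passed limma's adjusted test (0 of the 9 fibroblast and 0 of the 10 macrophage markers, with 5 and 8 lower at an unadjusted p under 0.05). All of these markers were above the background control median, where 57.8% of probe sets were lower and 8.34% lower at that p. Myd88+/+ mouse 3 was the highest mouse in the fibroblast, macrophage, T cell, B cell, neutrophil and myoepithelial lists, but not in the endothelial list. It was also the highest in Mmp2, Mmp3, Timp1 and Timp2. Without that mouse the differences of Mmp2 and Timp2 were -1.0 and -0.57, and the part of cell makeup was not tested.

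**Figure D2:**
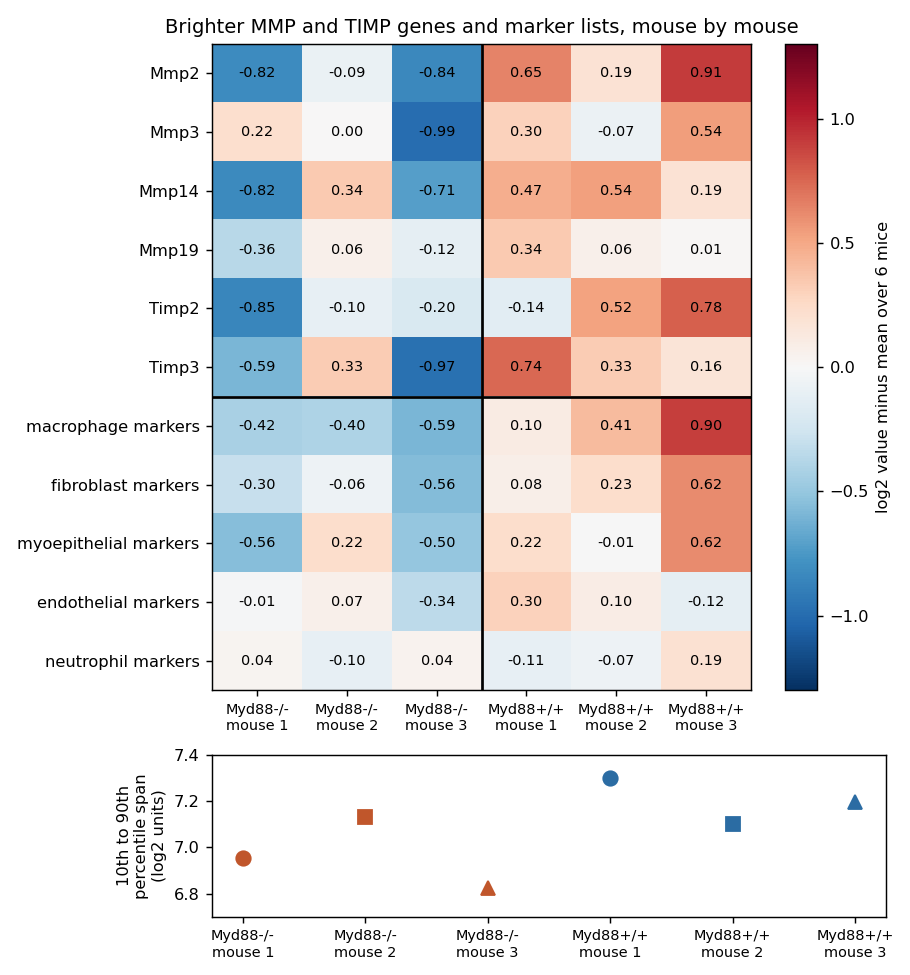
Log2 value minus its mean over the 6 mice, for the 6 brighter MMP and TIMP genes and, under the line, the mean over the markers of 5 cell types, with Myd88-/- mice left of Myd88+/+ mice; the lower panel gives the span between each array's 10th and 90th percentiles in log2 units. Myd88-/- mice 1 and 3 are low in Mmp2, Mmp14, Timp3 and the myoepithelial markers and have the narrowest spans, 6.95 and 6.83, while Myd88-/- mouse 2 lies between 0.33 and 0.34 in Mmp14 and Timp3.

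Genes whose profile over the 6 mice was nearest to each of the 9 were sought among 11387 named genes above the background control median, by the root mean square difference of centred log2 values. Such a search always returns some genes, and with 6 arrays the likeness is a description. Nearest to Mmp2 were Axl, a receptor tyrosine kinase, at 0.09 and Prr13 at 0.11, beside a root mean square of 0.67 for Mmp2 around its own mean. Nearest to Mmp14 were Slc35a4 at 0.10 and Tmem139 at 0.11, to Timp3 Ndufs7, a subunit of respiratory complex I, at 0.07 and Galt, an enzyme of galactose metabolism, at 0.10, and to Timp2 Ifi204, an interferon-inducible gene, at 0.12 and Fcgrt, the neonatal Fc receptor, at 0.13. For Mmp3 they were Ston2 and Antxr2, at 0.12 and 0.13. The flatter genes found closer ones, Slc9a3r2 and Mipep for Mmp19 at 0.03 and 0.04, Zfp473 and Nat8f4 for Mmp8 both at 0.04, 1700003F12Rik and G3bp2 for Mmp9 both at 0.05, and Smarca5-ps and Zfp60 for Timp1 at 0.06 and 0.07.

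The rest of the family was dim. Of 18 further MMP and TIMP genes 16 had a named probe set, and 15 of these had a mean under the background control median, the exception being the macrophage elastase Mmp12. Means were lower in Myd88-/- glands in 5 of the 16 and higher in 11, with a median log2 difference of 0.06 and a range from -0.10 (Mmp13) to 0.43 (Mmp11), and 0 were called in either direction, with 0 at an unadjusted p under 0.05. Lower means were found in 47.5% of all probe sets. Among those at or below the background control median the share was 33.4%, with a median log2 difference of 0.09, so the count is near that of dim probe sets. Mmp12 read 6.40, 5.95 and 5.12 across Myd88-/- mice 1 to 3, against 5.79, 5.69 and 4.91 across Myd88+/+ mice 1 to 3, a log2 difference of 0.36 with overlapping groups (limma adjusted p = 0.748). Timp4, the remaining inhibitor, differed by 0.05. Mmp3 and Mmp8 belong to a run of 10 neighbouring Mmp genes on chromosome 9 in the RefSeq order of GRCm38.p6. Myd88 lies on the same chromosome, with 1099 protein-coding genes between Mmp8 and Myd88. Mmp7, Mmp20, Mmp10, Mmp1a, Mmp1b, Mmp12 and Mmp13, the other genes of the run with a named probe set, had log2 differences of 0.12, 0.26, 0.07, -0.08, -0.05, 0.36 and -0.10.

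**Figure D3:**
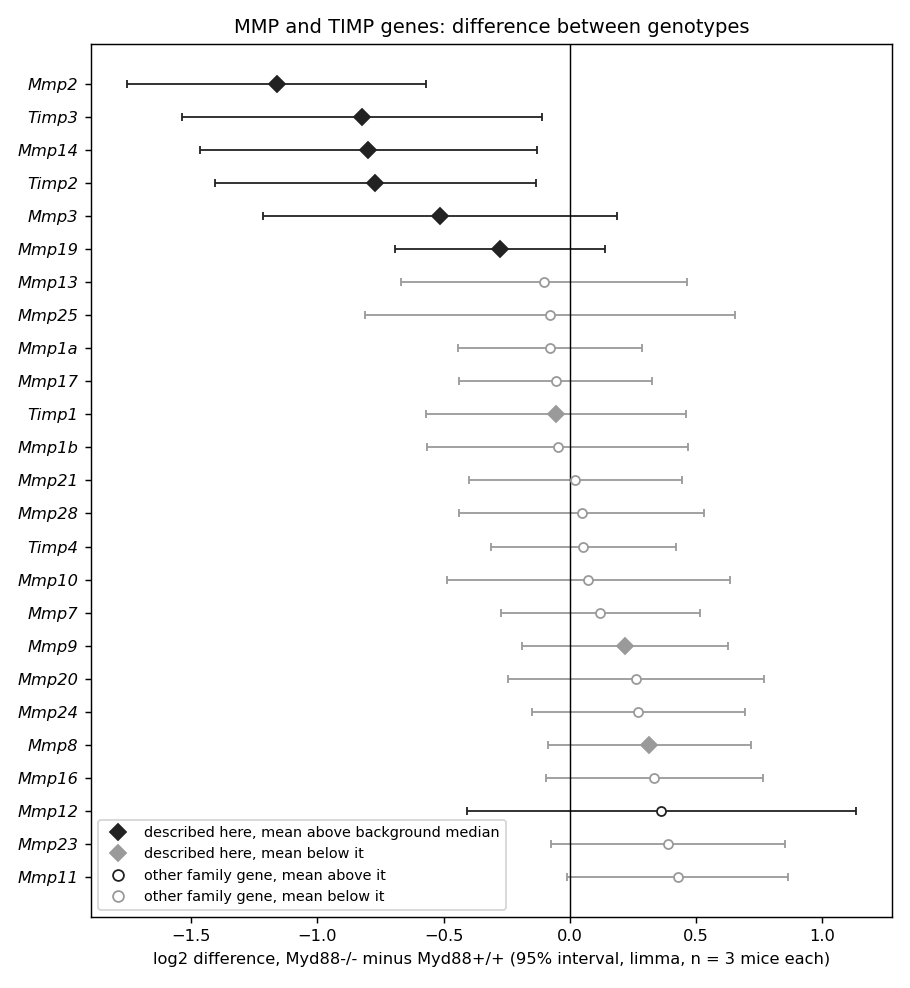
Log2 difference between Myd88-/- and Myd88+/+ glands for all 25 measured MMP and TIMP genes, with limma's 95% interval (n = 3 mice each), filled diamonds for the 9 genes described one by one, open circles for the others, and grey where the mean over the mice lies under the background control median of 5.55. The 6 lowest differences, from -1.16 for Mmp2 to -0.28 for Mmp19, belong to the 6 brighter genes of the 9, and none of the 25 passed the adjusted test. The order is a description, since the 9 genes were chosen with earlier results of these data known. Of the 16 others 15 were dim.

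Proteins that activate or restrain metalloproteinases by other routes were divided. Of 19 measured genes 9 had lower and 10 higher means in Myd88-/- glands, with a median log2 difference of 0.02, and 5 were lower at an unadjusted p under 0.05, while 0 passed after adjustment. Of all probe sets 5.55% were lower at that p, and 8.34% of those above the background control median. Efemp1, a fibulin that raises Timp3 levels, averaged 10.53 ± 0.18 in Myd88-/- mice, against 11.23 ± 0.26 in Myd88+/+ mice (SD, n = 3 each), for a log2 difference of -0.70. Plau, the urokinase that starts the plasmin cascade, averaged 6.40 ± 0.21 in Myd88-/- mice, against 7.12 ± 0.32 in Myd88+/+ mice (SD, n = 3 each), for a difference of -0.72. Thbs1, a thrombospondin that binds metalloproteinases, had -0.56, and Furin, the convertase that activates proMmp14, had -0.55. In each of these 4 genes, picked by the smallest p, the Myd88-/- mice all lay below the Myd88+/+ mice, as in 7.25% of all probe sets and 10.4% of the brighter ones, and their limma adjusted p lay between 0.375 and 0.436. Reck, a membrane-anchored inhibitor, had 0.15.

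ADAM and ADAMTS proteases, relatives that shed membrane proteins or cut proteoglycans, had 10 lower and 8 higher means of 18 measured, with a median log2 difference of -0.11. Adamts15 averaged 5.51 ± 0.15 in Myd88-/- mice, against 6.07 ± 0.18 in Myd88+/+ mice (SD, n = 3 each), for a difference of -0.56 (limma adjusted p = 0.402). Adam33 had 0.50, Adam17, the sheddase of tumour necrosis factor, -0.45 and Adam8 -0.43, and both Adam33 and Adam8 were under the background control median. None of the list passed after adjustment (0 of 18). At an unadjusted p under 0.05 limma counted 1 lower and 1 higher, beside 5.55% lower and 4.5% higher among all probe sets. Lower means of any size were found in 47.5% of all probe sets and 57.8% of the brighter ones.

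Substrates of these enzymes in the matrix were lower more often than not. Of 29 measured genes 24 had lower and 5 higher means in Myd88-/- glands, with a median log2 difference of -0.43, and 13 were lower and 0 higher at an unadjusted p under 0.05, beside the 5.55% of all probe sets given above. Of the 25 substrates above the background control median 21 were lower, 12 of them at that p. Among all probe sets above it, 57.8% were lower and 8.34% lower at that p. None of the substrates passed after adjustment (0 of 29). Col1a2, a chain of type I collagen, read 8.74, 9.08 and 8.37 across Myd88-/- mice 1 to 3, against 9.56, 9.76 and 10.23 across Myd88+/+ mice 1 to 3. Its groups did not overlap, as in 10.4% of the brighter probe sets, and the log2 difference was -1.12 (limma adjusted p = 0.323). The proteoglycans Bgn and Hspg2, biglycan and perlecan, had -1.18 and -0.74, and the basement membrane protein Nid1 had -0.81. By contrast, Col4a1 and Col4a2, the main type IV collagen chains, had 0.12 and -0.05. The list shares 4 genes with the fibroblast markers, so the counts of both are not separate evidence.

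Cytokines and transcription factors known to induce MMP or TIMP genes had 14 lower and 10 higher means of 24 measured, with a median log2 difference of -0.15. The signal transducer Stat3 averaged 9.50 ± 0.30 in Myd88-/- mice, against 10.08 ± 0.12 in Myd88+/+ mice (SD, n = 3 each), for a difference of -0.59 (limma adjusted p = 0.423). Its groups did not overlap, as in 10.4% of the brighter probe sets. Tgfb1, which raises Timp expression in fibroblasts, had -0.55 and Runx1 -0.44. Fos, a subunit of AP-1, had 0.52, with 3.87, 4.42 and 4.33 across Myd88-/- mice 1 to 3, against 3.73, 3.62 and 3.71 across Myd88+/+ mice 1 to 3, all under the background control median. Il1b, Il6 and Tnf, which were named after their values were seen, had -0.11, 0.21 and -0.44. The means of Il6 and Tnf lay under the background control median. None of the list passed after adjustment (0 of 24). At an unadjusted p under 0.05, 3 were lower and 1 higher, beside 5.55% lower and 4.5% higher among all probe sets. Of the probe sets above the background control median, 57.8% had a lower mean and 8.34% were lower at that p. When a mouse was left out, the list median ran from -0.29 (without Myd88+/+ mouse 3) to -0.06 (without Myd88+/+ mouse 1) for these inducers, from -0.15 to -0.02 (without Myd88+/+ mouse 2) for the ADAM and ADAMTS proteases, and from 0.07 to 0.18 (without Myd88+/+ mouse 2) for the 16 other MMPs and TIMPs.

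**Figure D4:**
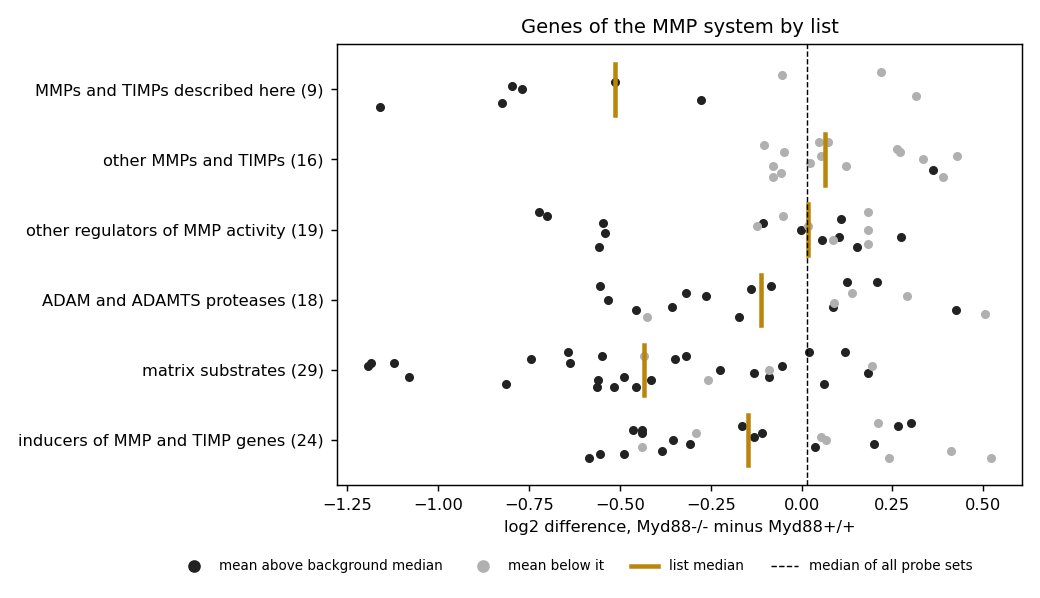
Log2 difference between Myd88-/- and Myd88+/+ glands, 1 point per gene (n = 3 mice per genotype), for the 9 genes and 5 further lists, with the list median as a bar, the median of all probe sets, 0.02, as a dashed line, and grey points for genes whose mean lies under the background control median. The list medians are -0.51 for the 9 genes, 0.06 for the other MMPs and TIMPs, 0.02 for other regulators, -0.11 for ADAM and ADAMTS proteases, -0.43 for matrix substrates and -0.15 for inducers.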

How the data were processed

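The authors deposited log2 values per probe set, which the labels describe as robust multi-array average (RMA) expression values. The submitters' processing notes name the Transcriptome Analysis Console. Its version, the RMA variant and the genome build are not stated there. The range of the values shows the log2 scale. RMA shrinks differences near background. Of 28846 probe sets, 6640 control probe sets were left out, and 22206 were tested, of which 19572 carried 1 gene symbol.

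Genotypes came from the sample titles. Myd88-/- mice were compared to Myd88+/+ mice with limma 3.58.1 (R 4.3.3) by lmFit and eBayes without covariates, and p-values were adjusted by Benjamini-Hochberg over the 22206 probe sets, 0.05 being the threshold. The fit was tested on simulated data with independent noise of a common spread for all probe sets. Spreads of the real probe sets differ, so the simulation cannot show how the fit behaves on these arrays. Intervals are 95% intervals from the moderated variance, and the number of arrays limits the precision. Nothing in the labels says whether mice shared litters.

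The 9 genes and all lists were chosen with earlier results of these data known. Named are the 9 genes, other family genes, up to 4 genes per further list by unadjusted p, and the 2 nearest profiles per gene; a gene named outside this rule was chosen after its values were seen. Of the list genes, 19 had no named probe set and were not analysed here. The replicate numbers of the titles were not used as pairs in the main fit. Same-numbered deviations correlated at -0.11, -0.15 and -0.02 across probe sets, which cannot show whether litters were shared. The deposited values were also rescaled by cyclic loess, by quantiles or to a common median, and further alternatives were dropping dim probe sets (the lowest 30% or 50%), an intensity trend combined with robust variances, weighting of arrays, unmoderated variances, the replicate block and leaving out each mouse.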

Additional observations from a re-analysis of the deposited data

How the results depend on the processing

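Under 16 other settings none of the 9 genes passed the adjusted test, and the differences of Mmp2, Mmp3, Mmp14, Mmp19, Timp2 and Timp3 stayed negative in all 16, with Mmp2 between -1.41 and -0.67. Mmp8 and Mmp9 stayed positive in the 14 settings that kept them, since dropping the dimmest 30% or 50% removed them and Timp1. The sign of Timp1 turned to 0.0051 with array weights and ran from -0.27 to 0.15 when a mouse was left out, being 0.0178 without Myd88-/- replicate 2 and 0.153 for the set lacking Myd88+/+ replicate 3. The number of the 9 genes with a lower mean was 6 to 7, and the number lower at an unadjusted p under 0.05, 4 in the main setting, was 1 without moderation of variances and 3 after quantile normalization. Over all probe sets the number called, 0 in the main setting (2232 at an unadjusted p under 0.05), was 2 with median centring, 4 with an intensity trend and robust variances and 0 to 5 when a mouse was left out. The Mmp14 minus Timp2 difference of -0.03 ran from -0.33 to 0.27 when a mouse was left out. The cause of these turns was not tested.

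Leaving out Myd88-/- replicates 1 and 3 together, a setting chosen after seeing the data, left 1 Myd88-/- mouse, which is assumed to vary like the Myd88+/+ mice. The median of the 9 genes was then -0.09, that of matrix substrates -0.27 and that of fibroblast markers -0.23, the Mmp14 minus Timp2 difference was 0.43, and 0 of the 9 genes were lower at an unadjusted p under 0.05. With the replicate block, 0 probe sets were called and Mmp2 kept its difference of -1.16 (adjusted p = 0.523). Each of the 9 genes had 1 probe set, so a mean over probe sets gives no other value. Quantile normalization and cyclic loess raised the count of lower means among the 16 other family genes, 5 in the main setting, to 9, so that no direction holds for them.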
